A study of Drosophila melanogaster with 36 samples.

Results

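The synaptic vesicle release machinery was followed here through 10 genes of Drosophila melanogaster, Syt1, brp, Syx1A, nSyb, Snap25, cpx, Rim, cac, Rab3 and unc-13. They were taken by FlyBase symbol, and each had a row among the 17494 genes counted in heads and muscles and the 17612 counted in whole flies. Poly-A RNA was read from heads and muscles of wild-type (WT) flies of strain 5905 at 3, 15, 30 and 45 d of age, with 3 libraries per tissue and age. Whole flies were read at 3 d in 3 genotypes, with 4 libraries each. These were WT, the mutant gcn5c450/c450, described as loss of function, and flies written as gcn5c450, tub-GAL4/c450, UAS-HA-Gcn5, labelled as overexpression of Gcn5. The last group is called the transgene group here, because it still carries both mutant alleles and drives the tagged Gcn5 with tub-GAL4, a driver active in nearly all cells. Gcn5 is a lysine acetyltransferase of chromatin. The sex of the flies, and whether libraries come from separate animals or cultures, are not given in the labels, so p-values measure only the spread between these libraries.

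At a synapse, vesicles filled with transmitter dock at the active zone, are primed, and fuse when calcium enters through channels placed beside them. Fusion is driven by a SNARE complex that nSyb, on the vesicle, forms with Syx1A and Snap25, on the plasma membrane. Syt1 senses the calcium, cpx (complexin) binds the assembled SNAREs, unc-13 primes vesicles, brp and Rim build the active zone, cac is the calcium channel and Rab3 is a vesicle GTPase. In flies these genes are known chiefly from neurons, and muscle samples contain the endings of motor neurons. Whether their RNA in muscle samples came from such endings or from other neural tissue was not tested.

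Levels are given in CPM, counts relative to the size of the library, with sizes scaled by TMM, a method that assumes that most genes do not change. Changes are log2 fold changes ± SE, and a gene is said to rise or fall where its adjusted p is under 0.05 in the quasi-likelihood test of edgeR, adjusted over all genes tested. All 10 genes passed the filter on low counts in every fit. Library totals lay between 3176508 and 4361043 counts in heads, 3000399 and 3675979 in muscles and 1621787 and 2821722 in whole flies. A release gene had 346 to 12106 counts in a head library, 17 to 2094 in a muscle library and 145 to 1517 in a whole-fly library. In muscles at 3 d, replicate 3 was unlike its group. Over genes its rank correlations with replicates 2 and 1 were 0.841 and 0.843, where those 2 reached 0.982 with each other. Results on muscles are therefore given with and without it. Summed muscle markers read 7908 to 44124 CPM in muscle libraries and 1538 to 4563 CPM in heads. Photoreceptor markers read 21702 to 47936 CPM in heads and 84.4 to 407 CPM in muscles, but muscle libraries also held 8595 to 22243 CPM of gut markers. Neuron markers summed to 760 to 1969 CPM in muscles and 4177 to 5951 CPM in heads. For glial markers the sums were 1912 to 3014 CPM in muscles and 2870 to 4232 CPM in heads. In whole flies the Gcn5 transcript stood at 35.9 ± 7.10 CPM in WT, 36.8 ± 0.559 in the mutant and 2968 ± 166 in the transgene group (SD, n = 4), so the transcript level does not check the mutant label.

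In the r6.36 annotation of the whole-fly files the 10 genes lie on 6 chromosome arms. Syt1 is on 2L (2772327 to 2799979, minus strand), brp on 2R (9503765 to 9541565, plus) and Rab3 on 2R (10721335 to 10729203, minus). The SNARE gene nSyb is on 3L (1630348 to 1637752, minus), Snap25 on 3L (24074180 to 24299205, plus) and Syx1A on 3R (24101600 to 24105763, minus). On 3R also lie cpx (4280221 to 4304604, plus) and Rim (17872748 to 17916578, minus), whereas cac is on X (11931280 to 11985087, minus) and unc-13 on chromosome 4 (867824 to 912331, minus). Snap25 spans 225 kb of genome but only 2282 bases of exons, and unc-13 has the most exon sequence, 22598 bases. Syx1A shares 447 exon bases, 10.7% of its exons, with eIF4EHP on the same strand, and the opposite strand of unc-13 holds asRNA:CR44029, asRNA:CR43425 and CR43361. No strand setting would separate reads in the bases that Syx1A shares with eIF4EHP. The strand setting for heads and muscles is not given in the sources used here, so reads of unc-13 and of its opposite-strand neighbours may not be fully separated either.

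Per kb of exon, the vesicle SNARE nSyb was the highest of the 10 genes in heads at 3 d, at 369 ± 24.9 CPM per kb (SD, n = 3), followed by cpx at 317 ± 35.5. Their libraries overlapped. The calcium sensor Syt1 (224 ± 25.3) and the plasma membrane SNARE Snap25 (218 ± 9.04) came next on this scale and also overlapped each other, and the GTPase Rab3 stood alone at 108 ± 7.60. The active zone genes and Syx1A were lower. The order was unc-13 (62.1 ± 6.91 CPM per kb), brp (54.0 ± 6.56), Syx1A (44.0 ± 6.72) and the channel cac (38.4 ± 3.56), where each overlapped its neighbour in the order, and then Rim (29.0 ± 3.61). The 2 membrane SNAREs of the same complex thus differed, as the level per kb of Snap25 was above that of Syx1A in all 3 libraries. From nSyb to Rim the ratio was 12.7 at 3 d and 11.4 at 45 d. Exon length counts every annotated exon, so genes with many alternative exons read low on this scale. It also counts in full the bases that unc-13 and Syx1A share with other genes.

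With age, all 10 release genes fell in heads. Between 3 and 45 d the largest falls were those of the fusion genes cpx, by 50.3%, and Syt1, by 46.9%. Snap25 fell by 39.4%, Syx1A by 35.7%, brp by 34.9%, Rab3 by 32.3% and nSyb by 30.0%, whereas Rim fell by 22.1% and unc-13 by 16.7%, with the fall of cac between them. Of all genes tested, 18.2% fell in this comparison. The median log2 change of the 10 genes was −0.59, beside 0.008 over all 9035 genes tested. All 10 also had no overlap between the libraries of 3 and 45 d, with the later age lower, as had 23% of all genes. In samples of a whole tissue, fewer cells of a type and less RNA per cell cannot be told apart.

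**Figure D1:**
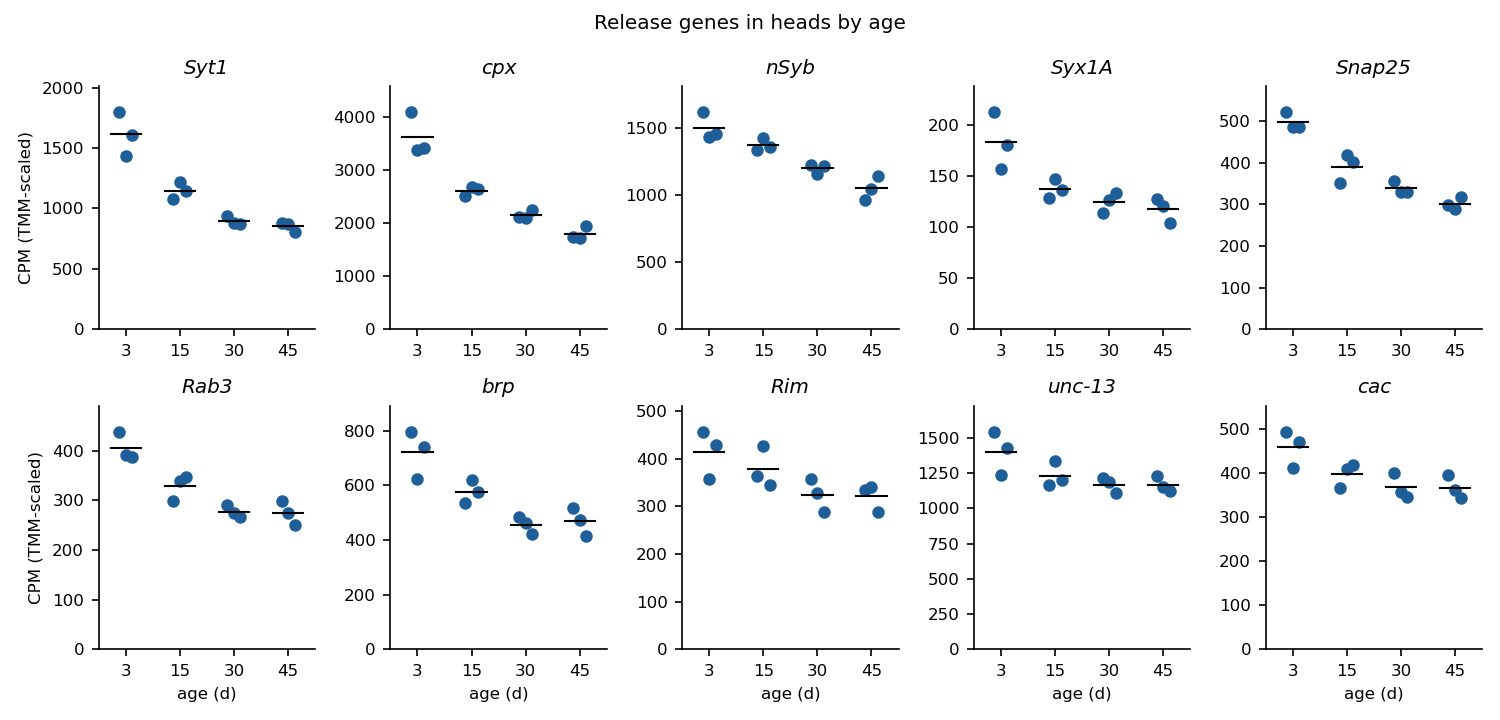
Each panel shows 1 release gene in heads, with CPM on the vertical axis from 0 and age in days on the horizontal axis, 1 point per library and a line at the mean of 3 libraries. All 3 libraries of 45 d lie below all 3 of 3 d in every panel, and nSyb shows little of its fall at 15 d.

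Among the SNAREs and the proteins that act on them, cpx read 4085, 3365 and 3401 CPM at 3 d and 2499, 2679 and 2631 at 15 d, then 2119, 2097 and 2249 at 30 d and 1731, 1726 and 1936 at 45 d. Each age lay wholly below the one before it. The log2 change over the whole span was −1.01 ± 0.086 (adjusted p = 3.41e-07, edgeR), the largest of the 10. Syt1 read 1798, 1434 and 1606 CPM at 3 d, 1075, 1215 and 1143 at 15 d, 936, 877 and 873 at 30 d, and 883, 874 and 809 at 45 d. Its 30 and 45 d libraries overlapped, and most of its fall of 0.91 ± 0.085 on the log2 scale (adjusted p = 7.87e-07, edgeR) was present at 30 d. Snap25 read 521, 486 and 485 CPM at 3 d, 351, 418 and 402 at 15 d, 356, 330 and 331 at 30 d, and 299, 288 and 318 at 45 d. Its oldest libraries were the lowest, and 15 and 30 d overlapped. The change from 3 to 45 d was −0.72 ± 0.078 (adjusted p = 3.49e-06, edgeR). Its partner on the plasma membrane, Syx1A, read 213, 157 and 180 CPM at 3 d, 128, 147 and 137 at 15 d, 114, 127 and 133 at 30 d, and 128, 120 and 104 at 45 d. After 3 d its ages overlapped from one to the next (−0.64 ± 0.11 from 3 to 45 d, adjusted p = 2.23e-04, edgeR). eIF4EHP, which shares exon bases with Syx1A, had a log2 change of −0.61 ± 0.085 in the same comparison (adjusted p = 3.99e-05, edgeR).

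nSyb differed in its course. Its 3 d libraries read 1618, 1431 and 1457 CPM and those of 15 d 1337, 1424 and 1357, so the ages did not overlap but were close. At 30 d they read 1225, 1160 and 1220 and at 45 d 965, 1046 and 1142. Of its log2 change from 3 to 45 d (−0.52 ± 0.078, adjusted p = 8.65e-05, edgeR), 25.2% was present at 15 d, the smallest share among the 10 genes. For unc-13 that share was 70.1%, of a change of only −0.26 ± 0.087. Whether such shares differ between genes was not tested.

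The active zone scaffold brp read 796, 625 and 742 CPM at 3 d, 536, 619 and 576 at 15 d, 482, 461 and 423 at 30 d, and 517, 475 and 414 at 45 d. No library of 15 d or later reached the lowest of 3 d, and 30 and 45 d overlapped (−0.62 ± 0.10 from 3 to 45 d, adjusted p = 1.53e-04, edgeR). Rab3, which marks vesicles and binds Rim, read 438, 391 and 387 CPM at 3 d, 298, 339 and 348 at 15 d, 292, 276 and 266 at 30 d, and 299, 275 and 250 at 45 d (−0.56 ± 0.086, adjusted p = 9.24e-05, edgeR). Rim and cac, which sit together at release sites, changed less. Rim read 457, 357 and 428 CPM at 3 d and 336, 342 and 289 at 45 d, so that the lowest young library was only just above the highest old one. Its change was −0.36 ± 0.11 (adjusted p = 0.0162, edgeR). cac read 492, 411 and 471 CPM at 3 d and 395, 361 and 342 at 45 d (−0.32 ± 0.089, adjusted p = 0.00932), with 344 to 417 CPM at the ages between. unc-13 read 1544, 1235 and 1430 CPM at 3 d, 1165, 1336 and 1201 at 15 d, 1216, 1187 and 1108 at 30 d, and 1230, 1150 and 1125 at 45 d (adjusted p = 0.025, edgeR). Its libraries of 15, 30 and 45 d overlapped with each other, and the highest of 45 d lay just below the lowest of 3 d.

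Most of these falls were under way early. At 15 d, 6 of the 10 genes had fallen from 3 d, against 7.85% of all genes, with Syt1 (−0.49 ± 0.085), cpx (−0.47 ± 0.085) and Syx1A (−0.41 ± 0.11) in front, then Snap25 (−0.35), brp (−0.32) and Rab3 (−0.30). The changes of cac, unc-13, nSyb and Rim lay between −0.21 and −0.13 and did not pass. In 7 of the 10 the libraries of 15 d lay wholly below those of 3 d, as in 17.9% of all genes, nSyb among them and Rim, cac and unc-13 not. At 30 d all 10 had fallen, as had 16.6% of all genes, and Syt1 had the largest change (−0.85 ± 0.085). Only Rim then still overlapped with 3 d, so that 9 did not, beside 22.4% of all genes. From 15 to 45 d a further fall passed for 4 of the 10, beside 4.01% of all genes, namely cpx (−0.53 ± 0.086), Syt1 (−0.42 ± 0.085), nSyb (−0.39 ± 0.078) and Snap25 (−0.37 ± 0.078). The libraries of 15 and 45 d did not overlap for 7 of the 10, beside 13.3% of all genes, the others being cac, Rab3 and unc-13. The steps from 3 d share the 3 d libraries. Without replicate 1 of 3 d, or without replicate 1 of 15 d, 3 of the 10 genes passed at 15 d (Syt1, cpx and Snap25), and Syx1A then had adjusted p-values of 0.113 and 0.0822 (edgeR).

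The falls of Rim, cac and unc-13 to 45 d are the least firm. Without replicate 1 of heads at 3 d, the highest young library for each of the 10 genes, their log2 changes were −0.27, −0.26 and −0.18, with adjusted p-values of 0.0899, 0.0507 and 0.127 (edgeR). Scaling by library size alone raised the median over all genes to 0.13 on the log2 scale. The 10 changes kept their sign and 7 of them passed, where by that scaling 26.8% of all genes were called higher and 12.01% lower.

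Across the 12 head libraries the release genes moved closely together, with Pearson correlations of log2 CPM between 0.68 and 0.98 over the 45 pairs and a median of 0.88. Snap25 and cpx were the most alike pair, and nSyb and unc-13 the least. Against the mean of the other 9 genes, Syt1 had the highest correlation, 0.99, and Rim the lowest, 0.85. These libraries share ages and scaling, and the values are a description. Outside the set, the genes most like the mean of the 10, among 7620 with a mean of at least 3 in log2 CPM, were Frq1 (r = 0.996), Asator (0.993), futsch (0.993), nAChRalpha4 (0.989) and CG43066 (0.989), over 12 libraries. Frq1 is a frequenin, a calcium-binding protein of nerve terminals, futsch is a microtubule protein of axons and nAChRalpha4 is an acetylcholine receptor subunit. Frq1 stood at 233 ± 25.1 CPM at 3 d and 150 ± 6.43 at 45 d, and nAChRalpha4 at 207 ± 21.5 and 115 ± 8.63 (SD, n = 3). All 5 were picked for likeness to a mean that fell with age, so their own fall is no separate result.

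Other genes of vesicle cycling changed in the same direction in heads from 3 to 45 d. Of 16 tested genes of the active zone and of priming, 11 fell and 1 rose, with a median log2 change of −0.39. comt, the ATPase that takes used SNARE complexes apart, fell most (−0.91 ± 0.076, adjusted p = 2.97e-07, edgeR). Cadps, needed for dense-core vesicles, changed by −0.65 ± 0.080 and Rop, the Sec1 protein that binds Syx1A, by −0.60 ± 0.067. The one that rose was Nsf2, the second gene of this ATPase family (0.30 ± 0.094, adjusted p = 0.0195, edgeR).

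Of 9 other vesicle proteins, 7 fell, with a median of −0.43, led by synaptogyrin (Syngr, −0.89 ± 0.078), the chaperone Csp (−0.74 ± 0.065) and synapsin (Syn, −0.71 ± 0.081). Of 15 tested genes of vesicle endocytosis, 13 fell, with a median of −0.42. They included nwk, an adaptor of the periactive zone (−1.03 ± 0.091), the clathrin adaptor AP-2mu (−0.99 ± 0.084) and the dynamin shi (−0.82 ± 0.087), whereas the clathrin chains Chc (−0.04) and Clc (0.06) did not pass. All 4 tested calcium channel subunits other than cac fell, among them the alpha2-delta subunits stj (−0.65 ± 0.086) and stol (−0.51 ± 0.10) and the T-type channel Ca-alpha1T (−0.57 ± 0.099).

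SNARE genes of general membrane traffic, by contrast, showed no such fall. Of 22 tested, 7 rose and 1 fell, beside 17.5% and 18.2% of all genes, and their median log2 change was 0.14. Syb, the synaptobrevin of general traffic, went up by 0.55 ± 0.083 (adjusted p = 8.29e-05, edgeR), the Golgi syntaxin Syx5 by 0.38 ± 0.10 and Vamp7, of late endosomes, by 0.26 ± 0.072. Syx6 went down (−0.25 ± 0.076). The summed level of the 10 release genes was 11.9 ± 0.936 times that of the 22 general SNAREs at 3 d and 6.83 ± 0.216 times at 45 d (SD, n = 3), with no overlap between the libraries of both ages.

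Neuron markers moved with the release genes. Of 8, 6 fell and 1, Rbp9, rose, with a median of −0.34, and elav, the pan-neuronal RNA-binding protein, did not pass (−0.22 ± 0.088, adjusted p = 0.0662, edgeR). The para sodium channel (−0.85 ± 0.13), futsch (−0.68 ± 0.091) and the cadherin CadN (−0.57 ± 0.092) fell most. Their summed level was 4830 to 5951 CPM at 3 d and 4177 to 4548 CPM at 45 d. The sum of the 10 release genes was 1.94 to 2.05 times the sum of these markers at 3 d, 1.72 to 1.77 times at 15 d, 1.60 to 1.65 times at 30 d and 1.49 to 1.61 times at 45 d. The first 3 ages did not overlap in this ratio, and 30 and 45 d did. The sum weighs genes by their level. cpx, which fell most, made up 32.1 to 34.1% of it at 3 d and 25.5 to 28.8% at 45 d. Gene by gene, Rim (−0.36), cac (−0.32) and unc-13 (−0.26) changed about as much as the median neuron marker, and the other release genes fell by more than that median.

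Markers of other cell types also moved in heads. All 7 tested muscle markers fell (median −1.09), from a summed 3108 to 4563 CPM at 3 d to 1815 to 1901 CPM at 45 d, and 6 of 8 photoreceptor markers fell (median −0.68). Of 8 glial markers 3 rose and 4 fell. The fall of all 7 muscle markers passed at 15 d (median −0.95), and from 15 to 45 d none of the 7 passed (median 0.05). Over that later span 3 of 8 photoreceptor markers fell (median −0.30), as did 1 of 8 neuron markers (median −0.18). Of the 8 glial markers 1 rose and none fell. The part of these cell types in the result was not tested.

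**Figure D2:**
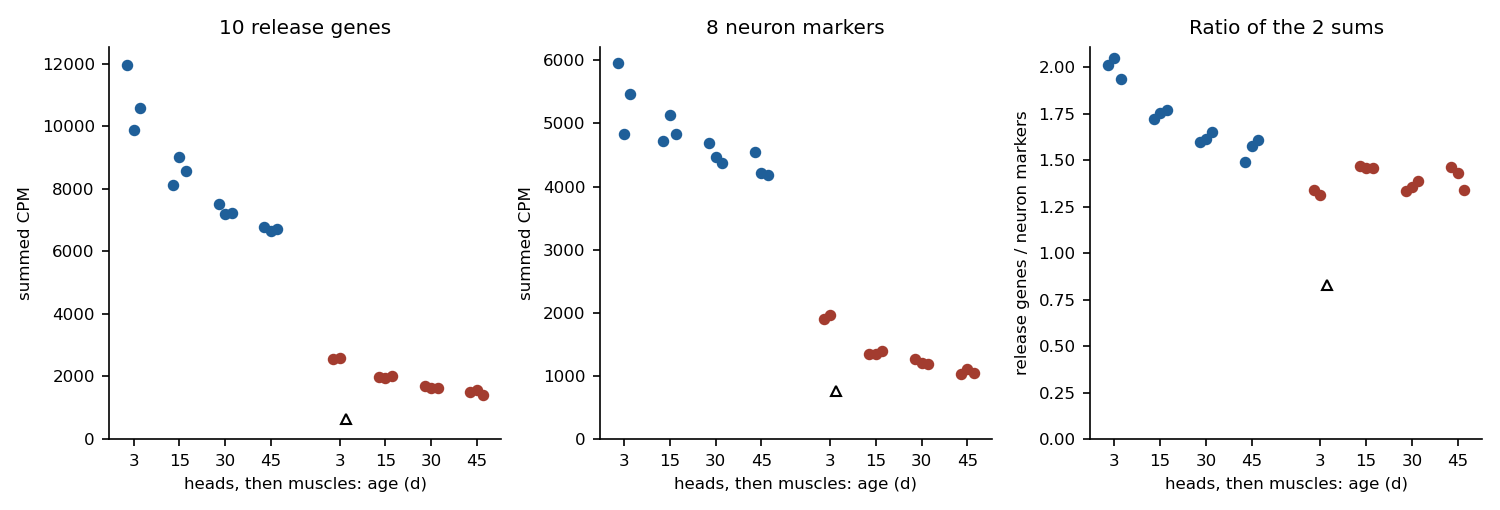
The summed CPM of the 10 release genes, the summed CPM of 8 neuron markers and the ratio of both sums are shown per library by age, for heads (blue) and then muscles (red), with all vertical axes from 0. The open triangle is replicate 3 of muscle at 3 d. The ratio lies between 1.94 and 2.05 in heads at 3 d and between 1.49 and 1.61 at 45 d, and between 1.31 and 1.47 in the muscle libraries other than the triangle.

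Muscles held far less of the release genes. In the fit of both tissues together, all 10 were lower in muscle than in head at 3 d, beside 30.1% of all genes, and had no overlap between the tissues, as 30.9% of all genes. nSyb was the furthest apart (−2.37 ± 0.22) and Syx1A the closest (−1.21 ± 0.37). Without replicate 3 of muscle at 3 d, all 10 remained lower (29.1% of all genes) and the range was −2.03 ± 0.089 for nSyb to −0.70 ± 0.12 for Syx1A. In a fit of these 2 groups alone, with all their libraries, brp (adjusted p = 0.0821, edgeR) and Syx1A (0.229) did not pass. Scaling by library size alone put the median of all genes at −0.89, and all 10 stayed lower. At 45 d, 9 were lower, against 24.5% of all genes, and Syx1A did not pass (−0.41 ± 0.36, adjusted p = 0.357, edgeR), although all 10 were without overlap (31.5% of all genes). Syx1A passed when that library was left out of the fit (−0.43 ± 0.10, adjusted p = 9.08e-04, edgeR), as then did all 10, beside 30.2% of all genes. Per kb of exon, nSyb was again the highest and Rim the lowest in muscles at 45 d, at 41.8 ± 3.01 and 4.28 ± 0.488 CPM per kb.

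In muscles, replicate 3 of 3 d had low values for each of the 10 genes. Its levels ran from 7.44% of the mean of the other 2 libraries for brp and 9.50% for Syx1A to 65.6% for Snap25. brp, for example, read 199, 186 and 14.3 CPM in replicates 1, 2 and 3. The same library held 760 CPM of neuron markers where the others of its group held 1907 and 1969, and 22243 CPM of gut markers against 11116 and 9271. Its muscle markers summed to 13911 CPM, below 32858 and 44124. The ratio of release genes to neuron markers was 0.83 in it and 1.34 and 1.31 in the other 2.

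**Figure D3:**
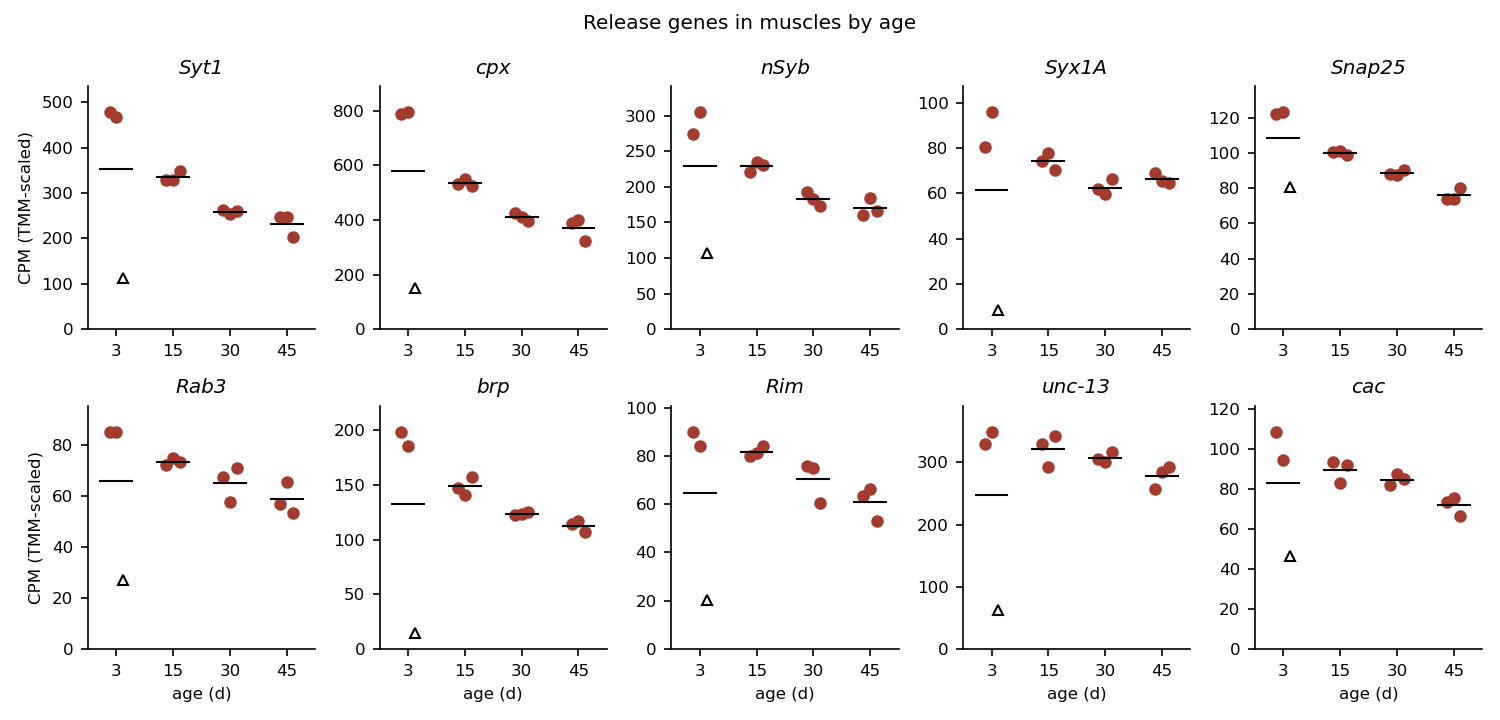
Each panel shows 1 release gene in muscles, with CPM on the vertical axis from 0 and age in days on the horizontal axis, 1 point per library and a line at the mean of all 3 libraries. The open triangle is replicate 3 of 3 d, which lies below both other young libraries for every gene.

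With this library included, almost no change with age passed in muscles. The SEs from 3 to 45 d were then 0.17 to 0.57 on the log2 scale, so a miss does not show that a gene did not change. From 3 to 45 d only Snap25 fell, with 122, 123 and 80.4 CPM at 3 d against 73.8, 74.1 and 80.2 at 45 d (−0.51 ± 0.17, adjusted p = 0.0491, edgeR), beside 11.1% of all genes. It was also the one gene without overlap between these ages, as 14.4% of all genes were. That call was lost without the filter on low counts, with only these 2 groups fitted and with a replicate block. It was also lost without replicate 1 or replicate 2 of 3 d, and without any single library of 45 d (adjusted p from 0.102 to 0.151, edgeR). By library size alone its sign turned (0.35 on the log2 scale). At 15 and 30 d none of the 10 passed against 3 d in edgeR, none had an unadjusted p under 0.05, and 8.08% and 14.2% of all genes changed in either direction. From 15 to 45 d none passed and 1 had an unadjusted p under 0.05, although all 10 had lower values without overlap at 45 d, as had 17.6% of all genes, and 0.767% of all genes fell by the test.

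Without that library, all 10 release genes fell in muscles from 3 to 45 d under TMM scaling, as did 22.5% of all genes, with a median log2 change of −0.61 beside 0.04 over all 8985 genes tested. cpx went from 790 and 796 CPM in the 2 young libraries to 390, 399 and 324 (−1.10 ± 0.085, adjusted p = 2.20e-08, edgeR). Syt1 went from 479 and 468 CPM to 247, 248 and 203 (−1.02 ± 0.086). The scaffold brp read 199 and 186 CPM at 3 d, 148, 141 and 158 at 15 d, 122, 123 and 125 at 30 d, and 114, 117 and 107 at 45 d (−0.77 ± 0.080), so that each age lay below the one before. nSyb had the same log2 change (−0.77 ± 0.085), from 274 and 305 CPM at 3 d through 221, 235 and 231 at 15 d and 193, 184 and 174 at 30 d to 161, 184 and 166 at 45 d. Then came Snap25 (−0.69 ± 0.078), Rab3 (−0.54 ± 0.11), Rim (−0.51 ± 0.12), cac (−0.50 ± 0.095), Syx1A (−0.41 ± 0.096) and unc-13 (−0.29 ± 0.086). Syx1A read 80.7 and 95.9 CPM at 3 d, 74.4, 77.8 and 70.4 at 15 d, 62.0, 59.6 and 66.2 at 30 d, and 69.2, 65.6 and 64.6 at 45 d. unc-13 read 330 and 349 CPM at 3 d against 258, 284 and 293 at 45 d, and its libraries of 15 d overlapped with the young ones. In these comparisons the 3 d group has 2 libraries, and the CPM values are those scaled with all libraries.

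Between these 2 libraries and 15 d, 5 genes fell (cpx, Syt1, brp, nSyb and Snap25, −0.56 to −0.29), beside 15.2% of all genes. At 30 d 9 had fallen, against 19.6% of all genes, and unc-13 had not (−0.14 ± 0.086, adjusted p = 0.218, edgeR). From 15 to 45 d, a comparison in which the odd library sits in neither group, 8 fell in the fit that leaves it out, beside 10% of all genes. Syx1A and unc-13 did not pass there. The fit of the 6 libraries of 15 and 45 d alone also gave 8.

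These muscle changes from 3 d are relative to the typical gene, and the scaling decides their sign. Scaled by library size alone, and without replicate 3 of 3 d, the median of all genes rose by 0.85 on the log2 scale between 3 and 45 d. The median of the 10 release genes was then 0.20, below it. By that scaling 5 were called higher and 2 lower, beside 74.4% and 6.24% of all genes, and all but cpx and Syt1 turned positive. At 15 and 30 d, all 5 and 7 of the 9 called genes changed sign. From 15 to 45 d the shift was 0.15, all called genes kept their sign and 5 fell. Muscle markers summed to 32858 and 44124 CPM in those young libraries and 7908 to 8336 CPM at 45 d, and their part in the result was not tested.

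**Figure D4:**
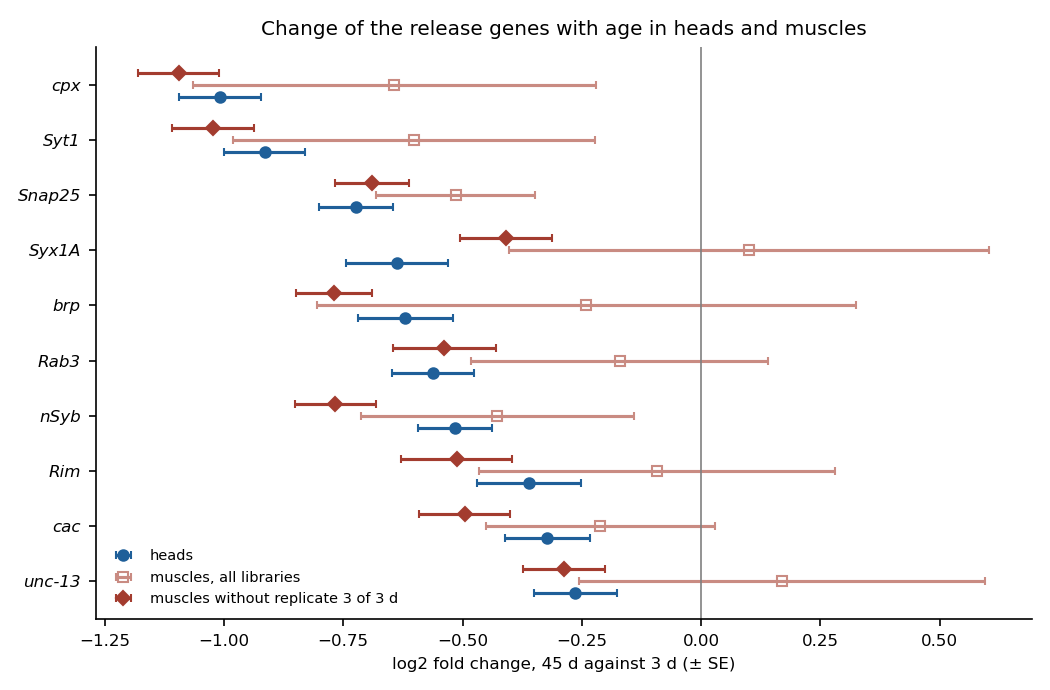
Log2 fold changes from 3 to 45 d with SE are shown for each release gene in heads (circles), in muscles with all libraries (open squares) and in muscles without replicate 3 of 3 d (diamonds). With all libraries the muscle errors are wide, up to 0.57 on the log2 scale, and without it both tissues lie between −1.10 and −0.26 under TMM scaling, whereas by library size alone 8 of the 10 muscle changes turn positive.

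Across the 10 genes the log2 changes from 3 to 45 d in heads and in muscles without that library had a Pearson correlation of 0.85 and a Spearman correlation of 0.73, as a description. cpx and Syt1 had the largest changes in both tissues and unc-13 the smallest. Under TMM scaling none of the 10 passed the test of a tissue difference in this change (edgeR interaction), with or without the library. Of all genes, 6.79% and 14.5% passed in either direction. No unadjusted p was under 0.05 for the 10 genes in either fit. Scaled by library size alone, with all libraries, Snap25, Rab3, cac and Syx1A did pass (adjusted p = 0.00173, 0.0184, 0.0274 and 0.0355, edgeR). A miss does not show that the tissues changed alike. With all libraries the differences, muscle minus head, were positive for all 10 genes, from 0.15 ± 0.30 for nSyb to 0.80 ± 0.51 for Syx1A. Without the library they ran from −0.21 ± 0.11 for nSyb to 0.27 ± 0.16 for Syx1A. In the same test from 15 to 45 d none of the 10 passed either and none had an unadjusted p under 0.05, with 0.168% of all genes past it with all libraries and 2.86% without that one.

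The neuron markers in muscles, without that library, showed 7 of 8 that fell from 3 to 45 d, with a median of −0.64, and by library size alone 2 were higher and 2 lower. In contrast to heads, the ratio of release genes to these markers did not fall. It was 1.341 and 1.313 at 3 d and 1.462, 1.429 and 1.342 at 45 d. The lowest library of 45 d thus lay only just above the highest of 3 d. The difference between tissues in this ratio was not tested. Of the other lists there, 9 of 16 active zone and priming genes fell and 1 rose, 9 of 15 endocytosis genes fell, all 4 calcium channel subunits fell, and 5 of 22 general SNAREs rose and 2 fell, where 21.6% of all genes rose. By library size alone most of these also changed sign, with 13 of 16, 11 of 15, 3 of 4 and 21 of 22 called higher in the same order, beside the 74.4% of all genes. With all libraries, the genes of those lists with the smallest p included Nsf2 (0.63 ± 0.17) and the syntaxin Syx18 of the endoplasmic reticulum (1.10 ± 0.17), which rose, and comt (−0.70 ± 0.23) and the amphiphysin Amph (−1.27 ± 0.19), which fell.

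In whole flies of 3 d, the release genes showed no detected change in the flies labelled as gcn5 mutant. None of the 10 passed between mutant and WT in edgeR, 1 had an unadjusted p under 0.05, and DESeq2 called 0, while 15.2% of all genes changed in either direction. The log2 changes ran from −0.15 ± 0.085 for cac to 0.21 ± 0.078 for Rim. With SEs of 0.071 to 0.11, a miss does not show that a gene did not change. Rim read 134, 132, 127 and 127 CPM in WT and 161, 148, 154 and 142 in the mutant, without overlap, as 7.94% of all genes, and missed the threshold (adjusted p = 0.0613, edgeR). In the authors' deposited table its adjusted p is 0.0987. The other 9 genes overlapped between the genotypes. Syt1, for example, read 324, 367, 296 and 316 CPM in WT and 316, 303, 338 and 299 in the mutant, and cpx 522, 602, 471 and 503 CPM against 508, 510, 529 and 442. Per kb of exon the order in WT again ran from nSyb, at 59.4 CPM per kb, to Rim, at 9.11, whereas in the mutant cac was the lowest, at 10.1. The median over the 10 genes was 0.0003, and over all genes 0.012.

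**Figure D5:**
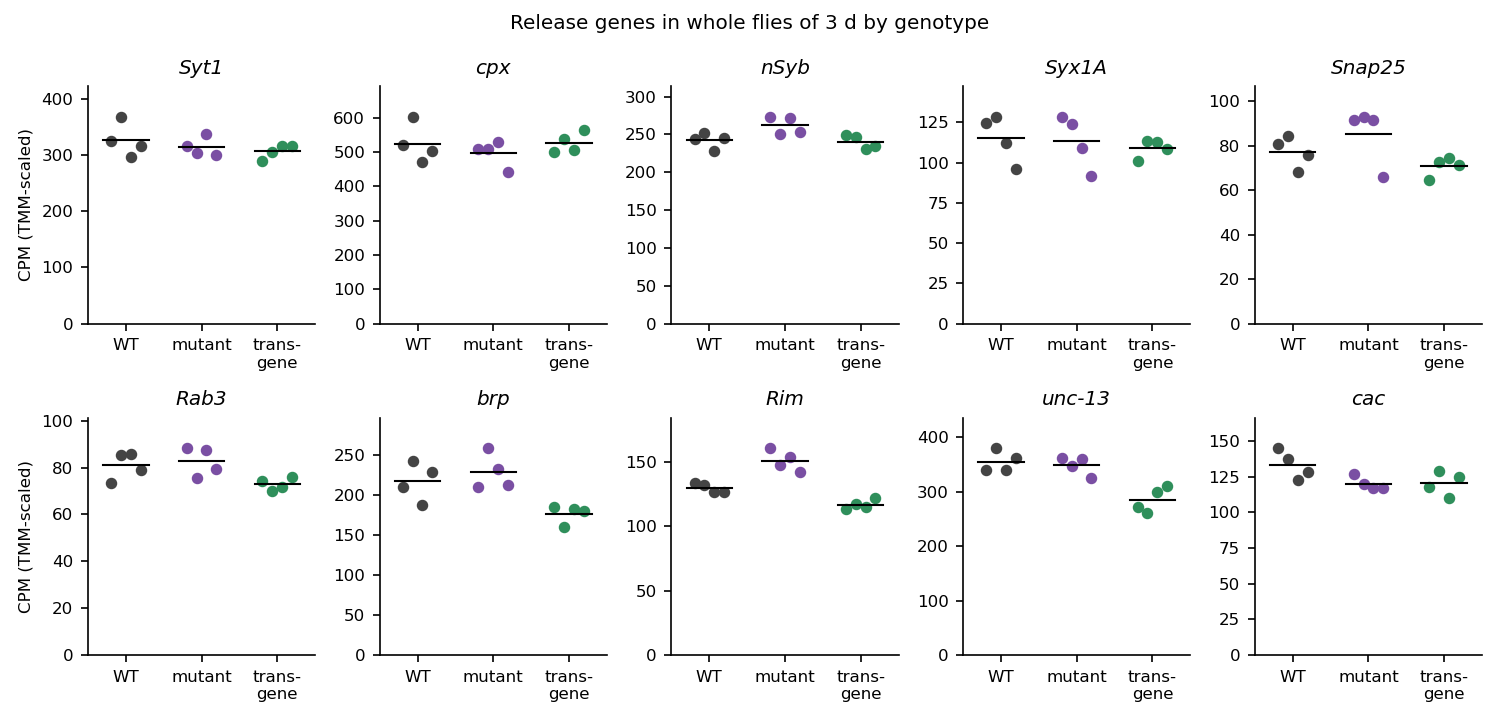
Each panel shows 1 release gene in whole flies of 3 d, with CPM on the vertical axis from 0, 1 point per library and a line at the mean of 4 libraries, for WT, the gcn5 mutant and the transgene group. For brp, Rim and unc-13 the libraries of the transgene group lie below those of the mutant.

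In the transgene group 3 of the 10 genes, the active zone genes brp and Rim and the priming gene unc-13, fell relative to the mutant, beside 4.11% of all genes. brp read 210, 259, 233 and 213 CPM in the mutant and 185, 161, 182 and 180 in the transgene group (−0.37 ± 0.086, adjusted p = 0.00399, edgeR). Rim read 114, 117, 115 and 122 CPM in the transgene group, below all mutant libraries (−0.37 ± 0.078, adjusted p = 0.00166). unc-13 read 362, 348, 360 and 326 CPM in the mutant against 271, 260, 299 and 311 (−0.29 ± 0.074, adjusted p = 0.00904). These 3 and nSyb were without overlap, as 6.78% of all genes were. Without replicate 2 of the transgene group unc-13 no longer passed (adjusted p = 0.0576, edgeR). The SNAREs nSyb (−0.13 ± 0.071), Snap25 (−0.26 ± 0.11) and Syx1A (−0.05 ± 0.10), and Syt1 (−0.03 ± 0.075), cpx (0.08 ± 0.078), cac (0.01 ± 0.085) and Rab3 (−0.18 ± 0.095), did not pass. The authors' deposited table gives adjusted p-values of 0.00218 for brp, 0.00133 for Rim and 0.00391 for unc-13.

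Relative to WT, a comparison that shares the transgene libraries with the one before, unc-13 (340, 380, 340 and 362 CPM in WT, −0.32 ± 0.074, adjusted p = 0.00259, edgeR) and brp (211, 244, 188 and 229 CPM in WT, −0.30 ± 0.086, adjusted p = 0.0152) fell, beside 8.23% of all genes. Together with Rim they were the 3 genes without overlap, beside 9.9% of all genes. Rim did not pass (−0.15 ± 0.078, adjusted p = 0.206, edgeR). Without replicate 2 of the transgene group or replicate 2 of WT, brp no longer passed (adjusted p = 0.0709 and 0.0586, edgeR) and 1 gene, unc-13, remained. In the authors' deposited table the adjusted p is 7.07e-04 for unc-13 and 0.0176 for brp.

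Markers moved in these flies as well. Of the 8 neuron markers, 5 fell in the transgene group relative to WT (median −0.26), beside 8.23% of all genes. Among them were fne (−0.33 ± 0.089) and onecut (−0.38 ± 0.11). In that comparison brp changed by −0.30 and unc-13 by −0.32, and the median of the 10 release genes was −0.14. The 8 neuron markers summed to 1643 to 2011 CPM in WT, 1591 to 1810 in the mutant and 1482 to 1563 in the transgene group. The ratio of release genes to these markers was 1.22 ± 0.018 in WT, 1.29 ± 0.024 in the mutant and 1.33 ± 0.017 in the transgene group (SD, n = 4). Of 8 photoreceptor markers, 6 rose in the transgene group relative to WT, beside 7.6% of all genes. All 6 gut markers fell in the mutant (median −1.41), beside 8.82% of all genes, from 6857 to 8889 CPM in sum in WT to 2167 to 3749 CPM. The part of these cell types in the results was not tested.

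Other vesicle cycling genes changed little in the mutant, where none of the 16 active zone and priming genes and none of the 22 general SNAREs passed in edgeR, with every adjusted p at or above 0.126 and unadjusted p under 0.05 for 1 and 2 of them. Synapsin (Syn) fell (−0.38 ± 0.084, adjusted p = 0.00131, edgeR), as the only one of 9 vesicle proteins, and fell in the transgene group relative to WT as well (−0.53 ± 0.083). AP-2mu rose (0.36 ± 0.11, adjusted p = 0.0202), as the only one of 15 endocytosis genes. Of 5 calcium channel subunits, the L-type channel Ca-alpha1D (−0.31 ± 0.080) and stol (−0.37 ± 0.12) fell. Of all genes, 8.82% fell and 6.37% rose in the mutant, so single calls in such lists are near the general share. In the transgene group relative to WT, 2 of the 16 active zone and priming genes fell, beside 8.23% of all genes. They were Fife (−0.42 ± 0.11), a partner of Rim and brp at the active zone, and CASK (−0.25 ± 0.084). Both were chosen after their values were seen.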

How the data were processed

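Poly-A RNA was read from 36 libraries, as single ends of 100 nt in heads and muscles and paired ends of 150 nt in whole flies, per the labels' protocols. The authors deposited counts per gene. For whole flies these were made with featureCounts 2.0.1 on exons of r6.36 without a strand option, per the file headers. STAR (2.7.6a), DESeq2 and Trim Galore (0.6.6) are also listed, per the submitters' processing notes. Head and muscle files end in 5 tallies of the kind htseq-count writes, which were left out. Their counting tool is therefore uncertain, and for these files the sources used here give no build, annotation or strand setting. The 3 whole-fly comparisons also come as DESeq2 tables deposited by the authors, with a mean signal, a log2 fold change, a score (the test statistic) and p-values per gene, of which the log2 fold changes and adjusted p-values were read.

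Counts were fitted with edgeR 4.0.16 in R 4.3.3 (TMM scaling, filterByExpr at minimum count 10, minimum total 15, quasi-likelihood F-test, Benjamini-Hochberg adjustment over all genes, threshold 0.05), separately for heads (9035 genes), muscles (8866), both (9538) and whole flies (10723). The SE is the log2 change divided by the square root of F. The fit was tested on simulated data. Files of heads and muscles and of whole flies were not compared with each other. CPM per kb uses r6.36 exon lengths. Symbols matched 17358 of 17494 and 17547 of 17612 identifiers. Counting error is covered only as part of the spread between libraries, and genes with fewer counts are measured less precisely.

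The members and the gene lists were chosen with earlier results of these data known. Named genes are the 10 members, up to 3 genes per list with the smallest p among those past the threshold in 3 main comparisons, the 5 genes most like the members in heads, and genes sharing exons with a member. A few others are named where a count or list called for it, after their values were seen. Listed genes that missed the filter were left out, in heads 1 of 17 active zone and priming, 2 of 17 endocytosis and 1 of 5 channel genes. Alternatives were DESeq2 1.42.0, scaling by library size, no filter, only the groups compared, a replicate block and leaving out each library. No sequences are shown, as none were in the sources used here.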

Additional observations from a re-analysis of the deposited data

Results flagged for a closer look

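Snap25 in replicate 4 of the mutant whole flies read 65.8 CPM, where the other 3 libraries of that group read 91.8, 93.0 and 91.4 CPM, so that this library stood far from the others. It was the 1 of the 30 groups of 4 libraries examined (10 genes in 3 genotypes) that met the 95% critical value of Dixon's test, and chance alone flags about 1 in 20 such groups. Without that library 4 of the 10 release genes passed between the transgene group and the mutant, in place of 3.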

How the results depend on the processing

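Of the changes of single release genes, 1653 kept direction and side of the threshold under an alternative, 97 changed sign without passing either way, 52 lost the call, 48 gained one and 10 reversed with a call on one side. Leaving out 1 library at a time, the number of the 10 genes called was 3 to 6 in heads at 15 d against 3 d, 7 to 10 at 30 d and at 45 d, and 4 to 6 for 45 d against 15 d. In muscles it was 0 to 5 at 15 d, 0 to 9 at 30 d and 0 to 10 at 45 d, where the highest values come from leaving out replicate 3 of 3 d. It was 2 to 4 for the transgene group against the mutant and 1 to 2 against WT.

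Scaling by library size alone called 3 genes in muscles at 15 d, 2 at 30 d and 0 at 45 d, 4 in the test of a tissue difference from 3 to 45 d and 1 in mutant against WT. Muscles at 45 d against 3 d gave 0 without a filter, 0 with only the groups compared and 0 with the replicate block. For 45 d against 15 d, 8 were called with only those groups and 8 without replicate 3 of muscle at 3 d in the fit, an alternative chosen after seeing the data, as was its joint use with other scalings.

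By library size Snap25 turned positive in muscles (0.60, 0.51 and 0.35 at 15, 30 and 45 d). Leaving out 1 library at a time in muscles, log2 changes from 3 d ranged from −0.37 to 0.57 for brp and −0.34 to 0.27 for nSyb at 15 d. They ranged from −0.50 to 0.48 for Syx1A, −0.31 to 0.42 for Rim and −0.26 to 0.26 for cac at 30 d, and from −0.41 to 0.56 for Syx1A and −0.29 to 0.50 for unc-13 at 45 d. The negative ends come from leaving out replicate 3 of 3 d, and the cause was not tested. Replicate numbers did not pair the libraries (median correlation of deviations 0.017 for heads, −0.0038 for muscles, −0.0042 for whole flies), and the replicate block moved no other count by over 1.5 times.

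Depth limits the values least in heads. In replicate 3 of muscle at 3 d Syx1A rests on 17 counts.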
